A study of Mus musculus with 4 samples.

Results

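The radial spoke genes encode parts of the T-shaped spokes of motile cilia and sperm flagella. The 8 genes taken here are Rsph1, Rsph3a, Rsph4a, Rsph6a, Rsph9, Nme5, Ropn1l and Dnajb13, chosen by name out of 30680 genes measured, and each was read by 1 probe set. Their transcripts were measured in whole trachea from male mice of 39 days and whole oviduct from female mice of 65 days, all of a mixed C57BL/6 x 129 background, freshly dissected and untreated. In each tissue a wild-type (WT) array stood beside an array labelled null for Gemc1, the gene now called Gmnc, whose product is known to start the multiciliated cell programme. There were 4 groups with 1 array each, so no difference within a tissue has a replicate check, an error or a test, and tissue cannot be told apart from sex and age. The sources used here describe neither the null allele nor the cells in which it acts.

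A motile axoneme is a ring of microtubule doublets around a central pair, and radial spokes reach from each doublet to the central pair. Signals from the central pair pass along the spoke to the dynein arms, and in humans loss of a spoke head protein causes primary ciliary dyskinesia, in which cilia beat abnormally. Within the spoke, Rsph1, Rsph4a, Rsph6a and Rsph9 belong to the head, Nme5 and Dnajb13 to the neck, and Rsph3a and Ropn1l to the stalk. Rsph6a is a close relative of Rsph4a that serves the sperm flagellum, whereas Rsph4a serves cilia of airway and oviduct.

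Promoter sequences from RefSeq (GRCm38.p6) were used for 5 of the 8 genes. Rsph1, Rsph4a and Nme5, all at least 2-fold lower in both tissues on the arrays labelled Gemc1-null, were not searched. Each window searched ran from 250 bases before to 50 bases after the gene start, and 27025 genes had such a window. The search covered both strands for an X-box palindrome, the type of site RFX factors bind, and for TGTTTAC, a forkhead core. The palindrome was spelled, after the member sequences had been seen, as GT, any 2 bases, CC, a spacer of 1 or 2 bases, GG, any 2 bases and AC. With a spacer of 1 base it occurred in 1.01% and with a spacer of 2 bases in 1.89% of all windows. Because the spelling followed the member sequences, these shares cannot be used to judge the palindromes found in members. GTTGCC alone, an arm of the palindrome and so able to overlap it, occurred in 12.7% of windows and TGTTTAC in 3.55%. Ropn1l held the palindrome with the 1-base spacer, from 20 to 8 bases before its start, and the GTTGCC in it was its only copy. Rsph9 held the palindrome with the 2-base spacer, from 6 bases before to 8 bases after its start. Dnajb13, Rsph3a and Rsph6a held none of these letters, and TGTTTAC was in 0 of the 5 windows. These matches describe letters in a window and are not binding sites. A stretch of 180 bases, 150 before and 30 after the start, is given for the 2 genes with a palindrome, for Dnajb13, which was lower on both arrays labelled Gemc1-null, and for Rsph6a, which was not. Capitals mark a palindrome. The windows lie at chr7:100514786-100514965, minus strand; chr15:31453660-31453839, minus strand; chr17:46144171-46144350, minus strand; and chr7:19054537-19054716, plus strand.
Dnajb13: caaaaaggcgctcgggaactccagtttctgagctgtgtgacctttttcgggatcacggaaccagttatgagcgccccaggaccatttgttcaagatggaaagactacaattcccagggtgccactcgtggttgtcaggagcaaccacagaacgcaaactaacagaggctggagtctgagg
Ropn1l: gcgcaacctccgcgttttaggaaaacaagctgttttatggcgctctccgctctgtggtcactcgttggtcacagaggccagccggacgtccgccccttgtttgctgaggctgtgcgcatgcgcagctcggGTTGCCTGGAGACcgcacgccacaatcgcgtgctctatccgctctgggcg
Rsph9: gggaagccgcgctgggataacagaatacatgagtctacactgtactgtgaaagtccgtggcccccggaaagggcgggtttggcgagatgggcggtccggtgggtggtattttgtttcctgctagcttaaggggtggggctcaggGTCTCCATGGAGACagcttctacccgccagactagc
Rsph6a: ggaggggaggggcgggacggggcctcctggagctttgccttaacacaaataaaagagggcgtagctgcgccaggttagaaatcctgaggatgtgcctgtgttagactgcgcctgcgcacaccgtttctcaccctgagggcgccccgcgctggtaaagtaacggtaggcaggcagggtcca

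The targeted gene was read first, as a check of the labels. On the log2 RMA scale, used for all levels here, Gmnc stood at 5.90 in WT trachea and 4.63 in the trachea labelled Gemc1-null. Both trachea values were under the negative-control medians of their arrays (5.98 and 5.74), so they are no check of the trachea label. In oviduct Gmnc stood at 6.11 on the WT array, near that array's negative-control median of 5.77. On the oviduct array labelled Gemc1-null it stood at 8.86, a 6.72-fold higher signal. The oviduct value goes against the label. The arrays are therefore named by their labels throughout, and every direction rests on those labels. Which part of Gmnc was removed is not stated in the labels, and the probe set may lie elsewhere in the gene, in which case it is no check.

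Tissue markers gave the setting of the member values. Ovgp1, the oviductal glycoprotein, stood at 12.79 and 12.84 on the oviduct arrays against 6.45 and 6.56 on the trachea arrays. Scgb1a1, a secretoglobin of airway club cells, stood at 12.74 in WT trachea, at 8.39 in the trachea labelled Gemc1-null and at 5.32 and 5.67 in oviduct. The 2 trachea arrays differed in many cell type lists. At least 2-fold lower on the array labelled Gemc1-null were 8 of 8 airway secretory genes (median -5.31), 7 of 9 general epithelial genes (median -1.07), 5 of 5 lymphocyte genes (median -4.23), 5 of 5 adipocyte genes (median -2.63), 3 of 4 smooth muscle genes (median -1.35) and 2 of 6 cartilage genes (median -0.04). At least 2-fold higher there were 8 of 8 skeletal muscle genes (median 5.85), 5 of 5 squamous genes (median 6.43) and 4 of 5 basal cell genes (median 2.11). The summed signal of the general epithelial list went from 12.40 to 11.14 on the log2 scale in trachea, and from 12.95 to 13.20 in oviduct. In oviduct 0 of 9 general epithelial genes (median 0.16) and 0 of 4 oviduct secretory genes (median 0.59) were 2-fold apart, while 6 of 6 ovary somatic genes (median -3.68) and 4 of 5 oocyte genes past the level filter (median -1.56) were at least 2-fold lower. Otherwise genes of these lists that passed the filter in the other tissue were under 2-fold apart there, except Scgb3a1 (1.16) and Cidea (-1.08) in oviduct and Muc1 (-3.10) and Muc16 (-2.71) in trachea. The part of these cell type differences in the member values was not tested.

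In trachea, 5 of the 8 members were at least 2-fold lower on the array labelled Gemc1-null, 2 were lower by less than that and Rsph6a was slightly higher. Over all 20146 genes that passed the level filter in trachea (signal at or above the array median on either array), 7.74% were at least 2-fold lower. In oviduct, 4 of the 8 were at least 2-fold lower, against 2.75% of 19695 genes. At least 2-fold higher were 0 members in either tissue, against 6.33% of genes in trachea and 0.807% in oviduct. Below 0 were 7 of 8 in each, against 47.3% in trachea, 39.8% in oviduct and 21% in both. At 1.5-fold, 7 members in trachea and 5 in oviduct were lower (13.3% and 5.22% of genes), and at 3-fold 4 and 4 (4.32% and 1.36%). The median difference of the 8 members was -1.48 in trachea and -1.23 in oviduct, beside 0.03 and 0.05 over all genes past the filter. All 8 members passed the filter in both tissues through the WT array. In the tissue labelled Gemc1-null, Rsph4a, Nme5 and Dnajb13 were under it in trachea, and Rsph4a and Dnajb13 in oviduct. Rsph1, Rsph4a, Nme5 and Dnajb13 passed the 2-fold line downward in trachea and oviduct alike, as did 1.31% of 18866 genes. Since each tissue is a mixture of cells, fewer multiciliated cells and less RNA per cell cannot be told apart.

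**Figure D1:**
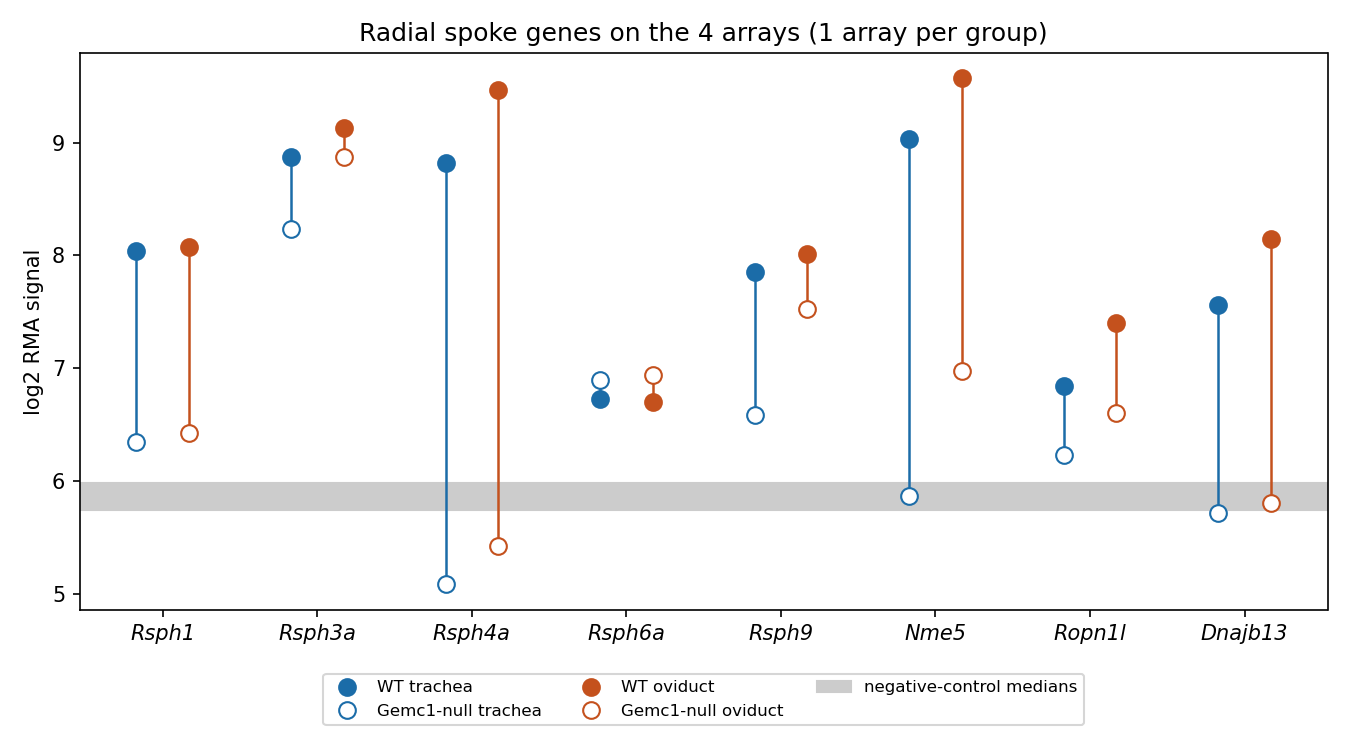
Log2 RMA signal of the 8 radial spoke genes, with 1 point per array: filled points are WT, open points are the arrays labelled Gemc1-null, and lines join the 2 arrays of a tissue. The grey band spans the negative-control medians of the 4 arrays (5.74 to 5.98), below which both open points of Rsph4a lie, while Rsph6a shows its open points above its filled ones.

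Rsph4a is the cilium-type spoke head protein. Its levels were 8.82 in WT trachea and 5.08 in the trachea labelled Gemc1-null, and at 9.47 and 5.42 in oviduct. Both lower values were under the median of the array's negative controls, so the folds are bounds taken against that median: at least 8.44-fold lower in trachea and at least 12.8-fold lower in oviduct. The oviduct bound exceeded the fold of every other member in oviduct, whereas the trachea bound was under the 8.96-fold of Nme5.

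Rsph6a, the sperm-type relative of Rsph4a, did not share this pattern. Its levels were 6.72 in WT trachea and 6.90 in the trachea labelled Gemc1-null, and at 6.70 and 6.94 in oviduct, differences of 0.18 and 0.24. Its signal was near background on every array: 67.0% to 74.4% of 5222 negative controls lay below it. That limits how large a fall of Rsph6a could be measured. In a list of 12 spermatid genes, 0 were 2-fold apart in either tissue. Their medians were 0.07 in trachea and -0.04 in oviduct over the 5 that passed the filter in each. Shares of all filtered genes past the 2-fold line were 7.74% downward and 6.33% upward in trachea, and 2.75% and 0.807% in oviduct. With shares this small, 0 of 5 genes does not set the spermatid list apart from other genes. On the WT arrays 9 of the 12 in trachea and 4 in oviduct lay under the negative-control median, where a fall could not have been measured. In that list Pgk2, the testis phosphoglycerate kinase, differed by 0.34 in trachea and Ldhc, the testis lactate dehydrogenase, by 0.27, while Ldhc (-0.51) and Prm1 (-0.50), a protamine gene, had the widest gaps in oviduct. Ldhc was under the filter in both tissues.

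Rsph1, which encodes another head protein, was at least 2-fold lower in both tissues. Its levels were 8.04 and 6.34 in trachea, a 3.24-fold lower signal on the array labelled Gemc1-null, and 8.07 and 6.42 in oviduct, 3.14-fold lower. Relative to the general epithelial list its differences were -0.62 and -1.81. Rsph9, a further head protein, stood at 7.85 and 6.59 in trachea (2.40-fold lower) and at 8.02 and 7.53 in oviduct (1.40-fold lower). Its differences, -1.27 and -0.49, lay on opposite sides of the 2-fold line. Relative to the general epithelial list they were -0.19 and -0.65, both under 2-fold and with the order of the tissues turned. With 1 array per group the gap between tissues was not tested.

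Among the neck proteins, Nme5, a relative of nucleoside diphosphate kinases, had levels of 9.03 in WT trachea and 5.87 in the trachea labelled Gemc1-null, an 8.96-fold lower signal. In oviduct it stood at 9.57 and 6.97, 6.05-fold lower. Its remaining oviduct signal was above 74.5% of negative controls, whereas the remaining trachea signal was above 52.9%. Dnajb13, a member of the HSP40 co-chaperone family, stood at 7.56 and 5.72 in trachea, where it was at least 3.53-fold lower against the negative-control median. In oviduct Dnajb13 stood at 8.15 and 5.81, 5.05-fold lower, with a final level beside the negative-control median of 5.79.

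The stalk genes were under 2-fold apart in both tissues. Rsph3a, whose protein anchors protein kinase A, stood at 8.87 and 8.23 in trachea (1.56-fold lower) and at 9.13 and 8.88 in oviduct (1.19-fold lower). A second probe set, shared by Rsph3a and its near-identical copy Rsph3b and so not assigned to either, differed by -0.59 in trachea and -0.06 in oviduct. Signals of these 2 genes cannot be separated with certainty, so the Rsph3a values are uncertain as those of a single gene. On the array labelled Gemc1-null the Rsph3a signal still exceeded 92.4% of negative controls in trachea and 95.5% in oviduct. Ropn1l, a ropporin-like protein with a kinase-anchor docking domain, stood at 6.85 and 6.23 in trachea (1.54-fold lower) and at 7.40 and 6.60 in oviduct (1.74-fold lower). Ropn1l was near background on the WT trachea array, above 69.3% of negative controls, which limits how large a gap could be measured there.

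The trachea calls depended on the reference level. Set against the general epithelial list, whose median was -1.07, only Rsph4a and Nme5 of the 8 stayed at least 2-fold lower in trachea. Rsph3a (0.43) and Ropn1l (0.45) turned positive. Within that list the trachea differences ran from -3.04 (Krt8) to 0.42 (Cldn4), so this reference depends on which epithelial genes were listed. In oviduct, where that list's median was 0.16, the same 4 genes, Rsph1, Rsph4a, Nme5 and Dnajb13, stayed at least 2-fold lower. With signals raised to the 75th percentile of each array's negative controls, Rsph1, Rsph4a and Nme5 stayed so in trachea, while Rsph9 (-0.91) and Dnajb13 (-0.63) did not. The share of all genes at least 2-fold lower under either setting was not counted, so these smaller counts have no matching background.

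**Figure D2:**
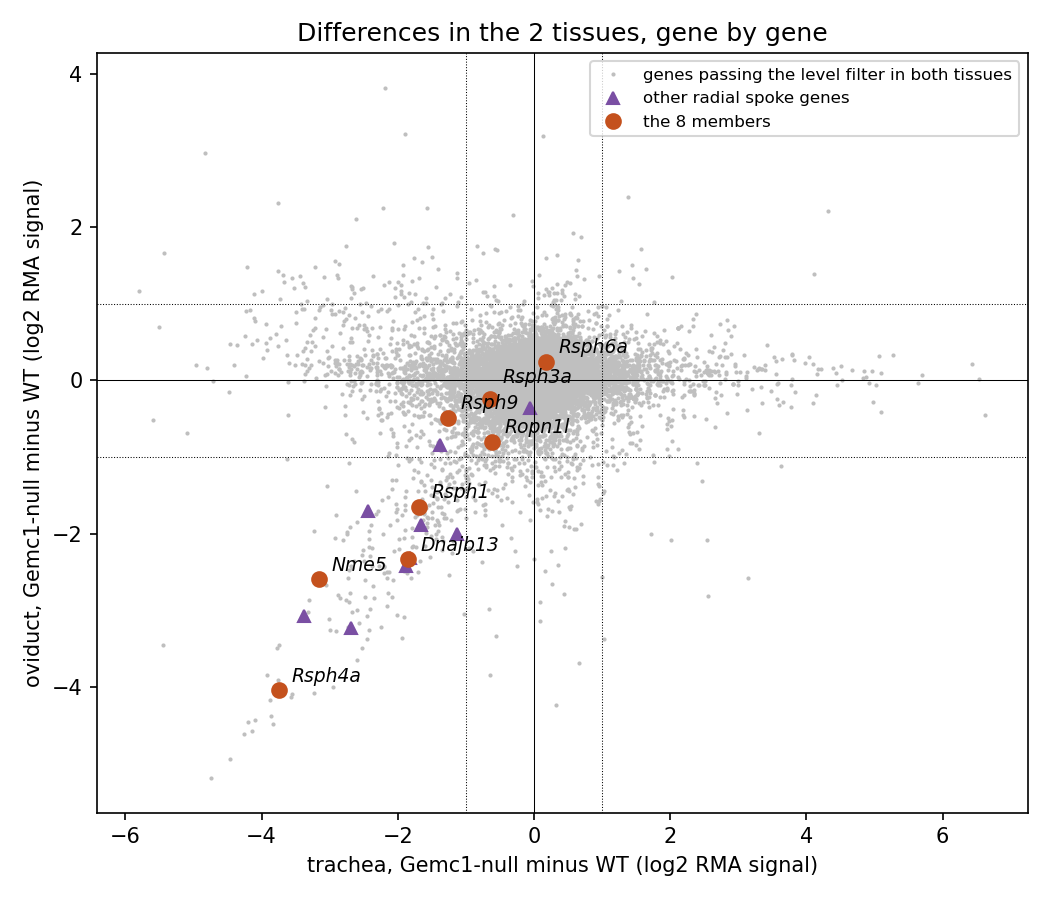
Difference between the array labelled Gemc1-null and the WT array in trachea (horizontal) and oviduct (vertical), in log2 RMA signal, for the genes that passed the level filter in both tissues (grey), the 8 members (orange circles) and other radial spoke genes (purple triangles). Dotted lines mark 2-fold; Rsph1, Dnajb13, Nme5 and Rsph4a lie beyond both lines at the lower left, and Rsph6a lies just above 0 on both axes.

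The WT arrays were then set side by side. Of the 8 members 7 were lower on the WT trachea array than on the WT oviduct array, against 51.7% of 19963 genes, and 0 were 2-fold apart, against 11.2%. The gaps were -0.64 for Rsph4a, -0.58 for Dnajb13, -0.56 for Ropn1l, -0.54 for Nme5, -0.25 for Rsph3a, -0.16 for Rsph9 and -0.03 for Rsph1. Rsph6a was level at 0.02. Without replicates the order of these gaps has no error attached.

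All 4 arrays were joined in a limma fit of genotype blocked by tissue, which looks for a difference that the tissues have in common. Its residual, with 1 degree of freedom beside a prior of 1.77, is the disagreement between the tissues. None of the 8 members, and 0 of 20975 genes, passed a limma Benjamini-Hochberg adjusted p of 0.05. At an unadjusted p under 0.05, 567 genes were lower (2.70%) and 168 higher. The shared log2 difference of Rsph4a was -3.89 (SE 0.174, limma adjusted p = 0.511) and that of Nme5 -2.88 (SE 0.225, limma adjusted p = 0.539). Dnajb13 had -2.09 (SE 0.209) and Rsph1 -1.67 (SE 0.148), each with a limma adjusted p of 0.550. Rsph9 (-0.88, SE 0.277), Ropn1l (-0.71, SE 0.158), Rsph3a (-0.45, SE 0.188) and Rsph6a (0.21, SE 0.149) each had a limma adjusted p of 0.829. At an unadjusted p under 0.05 in limma, 5 members were lower: Rsph4a, Nme5, Rsph1, Dnajb13 and Ropn1l. Ropn1l was lost without the tissue block, and Rsph9 was gained with no level filter or with signals raised to the negative-control median, so the count ran from 4 to 6. On arrays labelled Gemc1-null, Rsph4a and Dnajb13 in both tissues and Nme5 in trachea had signals near or under background, which limits their differences and SEs.

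Other genes of the spoke were taken from a list of 12, of which 10 were measured and 9 passed the filter in each tissue. At least 2-fold lower on the array labelled Gemc1-null were 8 in trachea (median over the 9, -1.83) and 7 in oviduct (median -2.01), and 0 were 2-fold higher. Among all genes past the filter 7.74% were lower in trachea and 2.75% in oviduct, and 6.33% and 0.807% were higher. With signals raised to the 75th percentile of the negative controls, 3 in each tissue remained past 2-fold, and 3 in trachea relative to the general epithelial list. The share of all genes under these settings was not counted. Cfap206, a protein at the spoke base, stood at 8.97 and 5.59 in trachea (at least 9.37-fold lower) and at 9.38 and 6.31 in oviduct (8.41-fold lower). The 3 genes of the calmodulin- and spoke-associated complex followed. Cfap61 stood at 7.86 and 5.18 in trachea (at least 4.34-fold lower) and at 8.80 and 5.56 in oviduct (at least 8.03-fold lower). Cfap91, listed as Maats1, was at least 2.64-fold and at least 3.97-fold lower, and Cfap251, listed as Wdr66, 2.19-fold and 4.03-fold lower.

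Lrrc23, a leucine-rich protein of a spoke head, stood at 8.05 and 5.61 in trachea (at least 4.96-fold lower) and at 7.68 and 5.98 in oviduct (3.25-fold lower). Rsph14, an armadillo-repeat protein, was at least 3.01-fold lower in trachea and 3.71-fold lower in oviduct. Iqub, a protein with a calmodulin-binding motif, was at least 2.01-fold and at least 3.13-fold lower. Spa17, which shares the docking domain of Ropn1l, differed by -1.39 in trachea and -0.84 in oviduct. Dynll1, a light chain that many complexes outside cilia also use, differed by -0.06 and -0.36. Ropn1, the sperm ropporin related to Ropn1l, was under the filter on all 4 arrays (5.11, 5.32, 5.26 and 5.42), and its differences were 0.21 and 0.16. At such levels, under the negative-control median on each array, a decrease could not have been measured. Rsph3b and Rsph10b were not analysed here.

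The central pair, which the spoke heads touch, was read by 12 measured genes of a list of 13. By measured difference all 12 were at least 2-fold lower in trachea and in oviduct, with medians of -2.42 in trachea and -2.24 in oviduct. The share of all genes past the filter was 7.74% in trachea, 2.75% in oviduct and 1.31% in both. Hydin, a giant protein of a central pair projection, was at least 10.2-fold lower in trachea and at least 15.4-fold lower in oviduct, and Spag6l, an armadillo-repeat protein, 6.64-fold and 5.96-fold lower. Against the negative-control median, Spag16 (1.95-fold and 1.64-fold), Cfap221 in trachea (1.81-fold) and Cfap47 in trachea (1.59-fold) had bounds short of 2-fold. Of 11 listed multiciliated cell markers 10 were measured. By measured difference 9 of these in trachea and 10 in oviduct were at least 2-fold lower, beside 7.74% and 2.75% of all genes. Foxj1, the gene left out, had no probe set of its own. A probe set shared by Foxj1 and Rnf157 differed by -0.38 in trachea and -0.56 in oviduct. The bounds of Ccdc113 (1.65-fold and 1.40-fold) fell short of 2-fold, and Sntn, a ciliary tip protein, was at least 12.7-fold and at least 20.6-fold lower. Tppp3, a tubulin-binding protein in that list, was the exception at 0.50 in trachea and -1.19 in oviduct.

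**Figure D3:**
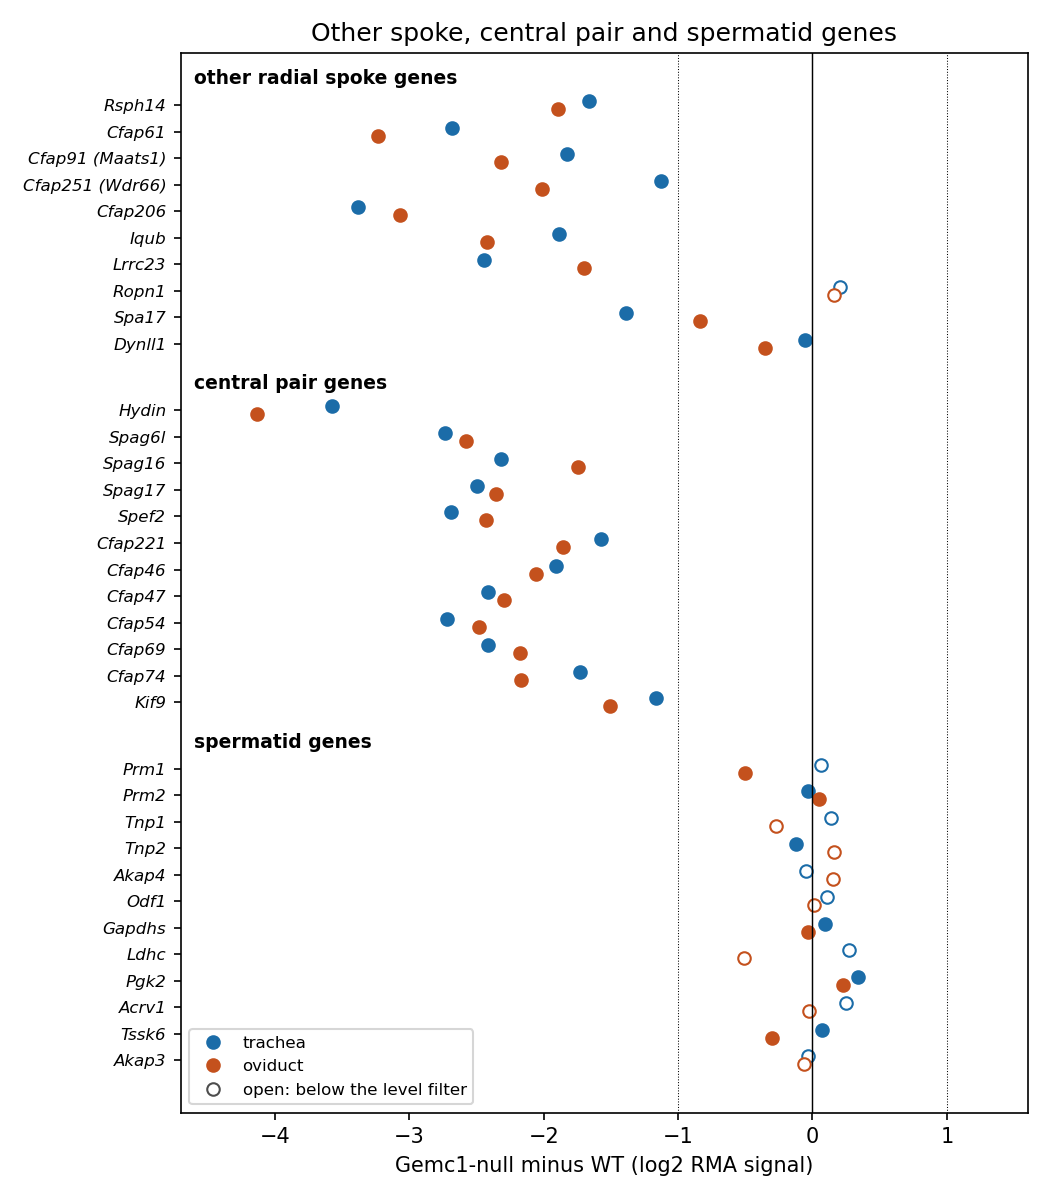
Difference between the array labelled Gemc1-null and the WT array (log2 RMA signal) for the measured genes of 3 lists, trachea in blue and oviduct in orange, with 1 array per group. Open points are genes under the level filter in that tissue and dotted lines mark 2-fold; the 12 central pair genes lie left of the lower line in both tissues, while the 12 spermatid genes and Ropn1 lie between the lines.

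The genes whose profile over the 4 arrays was nearest the mean profile of the 7 members other than Rsph6a were Lrrc71, Meig1, Dcdc5, Lrrc46 and Ccdc30. Likeness was the Euclidean distance between log2 profiles, each centred on its own mean, and the smallest was 0.0426 for Lrrc71. Lrrc71 differed by -1.89 in trachea and -1.69 in oviduct, beside -1.85 and -1.74 for the mean of the 7 members. The distances of the others were 0.154 for Meig1, 0.175 for Dcdc5, 0.202 for Lrrc46 and 0.209 for Ccdc30. Among the members the distance to this mean, which they form themselves, ran from 0.417 for Rsph1 to 2.11 for Rsph4a, and for Rsph6a, left out of it, it was 2.05. Such a profile holds only 4 values, so many genes can lie close to it.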

How the data were processed

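Probe set values were deposited for 4 Affymetrix arrays of 1 colour, hybridised with biotin-labelled cDNA. Per the submitters' processing notes, the authors used RMA, which corrects background, normalizes between arrays and summarises on a log2 scale. The sources used here do not state its settings. The deposited log2 values had been logged again. Raising 2 to each value gave 6 significant digits 100% of the time (relative tolerance 1e-09), against 0.044% of the values themselves, so that power was used. Array medians lay between 5.91 and 6.00.

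Of 65956 transcript clusters, 31228 were named with 1 gene through the platform annotation and a RefSeq table (GRCm38.p6), 1522 had several or unresolved genes and 33206 were not listed. A gene's probe set with the highest mean was used. Limma 3.58.1 in R 4.3.3 was tested on simulated data. The simulation had no difference between tissues and a simplified spread, so it does not show how the fit performs on these arrays. Bounds use the median of 5222 negative controls. Alternatives covered scaling, probe sets, floors, thresholds, the filter and the prior. Named genes were all members, the measured other spoke genes, leading genes of each remaining list and the 5 nearest profiles. Markers of cell types are given mainly as counts. Members and lists were chosen with earlier results of these data known.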

Additional observations from a re-analysis of the deposited data

Results flagged for a closer look

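Of 124 genes in the lists used here, with Gmnc, 2 were at least 2-fold apart in opposite directions in trachea and oviduct. No level filter was applied to this flag. The targeted gene Gmnc had differences of -1.26 (trachea) and 2.75 (oviduct), a gap of -4.01. Its 2 trachea signals were under the level filter and under the negative-control medians, so the trachea difference lies within background. Scgb3a1, an airway secretoglobin, differed by -5.79 in trachea and 1.16 in oviduct, a gap of -6.96. With 1 array per group neither gap was tested. Of the 8 radial spoke genes 0 had opposite signs in the tissues. Over all genes, 21% of 18866 were below 0 in both tissues. The share of all genes with opposite signs, or 2-fold apart in opposite directions, was not counted.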

How the results depend on the processing

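Counts of radial spoke genes at least 2-fold lower were 5 in trachea and 4 in oviduct. Relative to the general epithelial list the trachea count was 2, Rsph3a (0.43) and Ropn1l (0.45) reversed there, and Rsph6a moved past 2-fold at 1.25. With signals raised to the 75th percentile of negative controls the trachea count was 3, and Rsph6a in both tissues and Ropn1l in trachea had both arrays under that floor and gave no value. The cause was not tested beyond what these constructions show. How many of all genes were at least 2-fold lower under either setting was not counted. Thresholds of 1.5-fold and 3-fold gave 7 and 4 in trachea and 5 and 4 in oviduct. In all, 53 of 61 recomputed member differences kept their sign and side of 2-fold. Of the 53, 16 came from centring each array on its median, a shift (0.00033 in trachea, -0.00592 in oviduct) too small to change a call. Relative to the general epithelial list 10 were kept, 3 were weaker, 2 reversed and 1 stronger. With signals raised to the 75th percentile of negative controls 11 were kept and 2 were weaker. Averaging probe sets could not change a member, since each has 1, and is left out of the 61. The other spoke genes went from 8 to 3 in trachea under either of those settings and from 7 to 3 in oviduct under the higher floor. The limma fit called 0 genes under every alternative run, with 448 to 701 lower and 109 to 362 higher at an unadjusted p under 0.05. No leave-one-out fit exists, since it has no residual degree of freedom. The fit pairs the arrays of a tissue. Without that block 4 members were lower at an unadjusted p under 0.05, against 5 with it and 6 with no level filter or the lower floor. Signals near the negative controls limit how large a gap could be measured.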
